A study of Homo sapiens with 8 samples.

Results

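ELL and its relatives ELL2 and ELL3, with the ELL-associated factors EAF1 and EAF2, were read on 8 human exon arrays, as 5 of 16145 genes with a gene value. Their probe sets were taken by gene symbol, which gave 71 of 287329 probe sets: 20 for ELL, 18 for ELL2, 15 for ELL3, 10 for EAF1 and 8 for EAF2. Each probe set reads an exon or a stretch of it, and the gene value is a log2 summary over the probe sets of a gene. The cells were HEK293, a line derived from human embryonic kidney, either control (wild type in the labels) or a stable ELL knockdown derivative labelled shELL. Each line was left without EGF or given EGF, the ligand of the EGF receptor, at 50 ng/mL for 1 h. Biological replicates numbered 2 in every one of the 4 groups. The labels do not say whether the shELL cells were 1 clone, and the sequence of the hairpin is not used here.

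ELL proteins bind RNA polymerase II and raise the rate of transcript elongation by suppressing transient pausing. They are subunits of the super elongation complex, which carries the kinase P-TEFb on an AFF scaffold and is recruited to rapidly induced genes, and of the little elongation complex, which acts on small nuclear RNA genes. ELL was identified as a fusion partner of MLL in acute leukaemia, ELL2 is known for immunoglobulin secretion in plasma cells, ELL3 was first described in testis, and EAF1 and EAF2 bind ELL proteins and stimulate their elongation activity.

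The arrays were not alike. Replicates correlated over 16145 gene values at r = 0.784 in shELL with EGF and at 0.911 to 0.954 in the other groups, and the lowest deposited 75th percentile, 2.17 where the highest of the 8 was 5.16, belonged to replicate 1 of shELL with EGF. Olfactory receptors, a family used mainly in the nose although some members are known in kidney, set the background level at their 95th percentile: 2.53 for the mean of a probe set over 8 arrays (1265 olfactory receptor probe sets) and 2.77 for a gene value (45 genes). Of 10 markers known in HEK293 or embryonic kidney, 5 lay above background (EYA1, SALL1, NEFL, VIM and IRS4), while PAX2, SALL2, WT1, LHX1 and NEFM did not. Of all 16145 genes, 7201 lay above it. Of the markers of other cells, COL1A1 of 5 fibroblast genes and KRT17 of 3 keratin genes lay above background, and neither of 2 blood genes did. The HEK293 list averaged 3.05 to 3.27 on control arrays and 2.88 to 3.09 on shELL arrays, which overlap. The fibroblast list averaged 1.86 to 2.29 and 2.05 to 2.75, and the blood list 1.47 to 2.18 and 1.54 to 2.63. The keratin list averaged 1.95 to 2.42 on control arrays and 2.69 to 3.37 on shELL arrays, with KRT17 at 2.49 in control and 4.45 in shELL. Within the HEK293 list IRS4 was at 4.29 in control and 2.76 in shELL, while the other 9 genes differed by -0.37 (SALL1) to 0.18 (LHX1). The part of these differences in the values below was not tested, and in bulk RNA fewer cells of a type and less RNA per cell cannot be told apart.

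The EAF1 gene was the member read most firmly above background and ELL is the gene named in the labels, so the promoters of both are shown to place them beside the EGF comparison. The windows cover 300 bases around the start of each gene in RefSeq (GRCh38.p14), chr3:15427348-15427647 on the plus strand for EAF1 and chr19:18522021-18522320 on the minus strand for ELL, both 5′ to 3′. Capitals mark CCGGAAG on either strand, the core of sites for ETS factors, some of which are substrates of the MAP kinases that EGF activates.
EAF1: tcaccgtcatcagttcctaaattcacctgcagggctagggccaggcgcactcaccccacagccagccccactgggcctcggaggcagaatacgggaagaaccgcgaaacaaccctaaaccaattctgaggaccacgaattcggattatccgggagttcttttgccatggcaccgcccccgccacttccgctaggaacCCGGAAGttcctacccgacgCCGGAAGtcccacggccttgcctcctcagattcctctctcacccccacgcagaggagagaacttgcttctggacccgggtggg
ELL: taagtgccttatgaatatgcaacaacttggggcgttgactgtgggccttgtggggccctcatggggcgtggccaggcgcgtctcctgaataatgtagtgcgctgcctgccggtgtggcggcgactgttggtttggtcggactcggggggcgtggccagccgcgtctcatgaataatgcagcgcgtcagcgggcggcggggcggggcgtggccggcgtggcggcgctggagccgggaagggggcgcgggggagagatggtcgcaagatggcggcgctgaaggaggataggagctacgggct
EAF1 held 2 such matches, EAF2 held 1, and the ELL and ELL3 windows held 0, where 10.3% of 35116 promoters of the same length hold at least 1. GCGNGGGCG, which covers sites of EGR factors, was found once each in EAF1 and ELL3 and in 9.43% of all promoters. Neither TGACGTCA (CRE, 1.85%) nor TGANTCA (AP-1, 7.71%) matched in the windows of any of these 4 members, on either strand. No 2 matches overlapped, and a match of letters describes the window and no binding. GC content was 60.3% for EAF1 and 67.0% for ELL.

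ELL, the targeted factor, was read first. In control without EGF its gene value was 2.54 and 2.50 on the 2 arrays, and with EGF 2.57 and 2.88. On the shELL arrays it was 2.93 and 2.63 without EGF and 3.86 and 2.65 with EGF. The control arrays thus lay between 2.50 and 2.88, all shELL arrays lay at or above 2.63, the groups overlapped, and 3 of 8 values were above the gene background of 2.77. These 3 were replicate 2 of control with EGF and replicate 1 of shELL without and with EGF. On the same 3 arrays the median of the olfactory receptor genes was highest, at 1.98, 2.04 and 2.46.

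The 4 shELL arrays averaged 3.02 ± 0.58 and the 4 control arrays 2.62 ± 0.18 (log2, SD, n = 4 each). The difference was 0.40 with a 95% interval from -0.25 to 1.05 (limma adjusted p = 0.9999 over 16145 genes, exact two-sided permutation p = 0.171). The permutation split the 8 arrays 4 against 4 without regard to EGF state, and 0.0286 is the smallest p that it allows. A reduction of ELL was therefore not seen in the gene value, and shELL below means the arrays labelled so. The control mean lay below the gene background of 2.77, with 1 of 4 control arrays above it. Whether this level hid a reduction was not tested. The brightest ELL probe set, 3855068, averaged 7.14 in control and 7.71 in shELL, and the directions of all 20 are given below. The line difference of ELL was 0.091 when replicate 1 of shELL with EGF was left out, and 0.70 when replicate 2 of that group was.

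**Figure D1:**
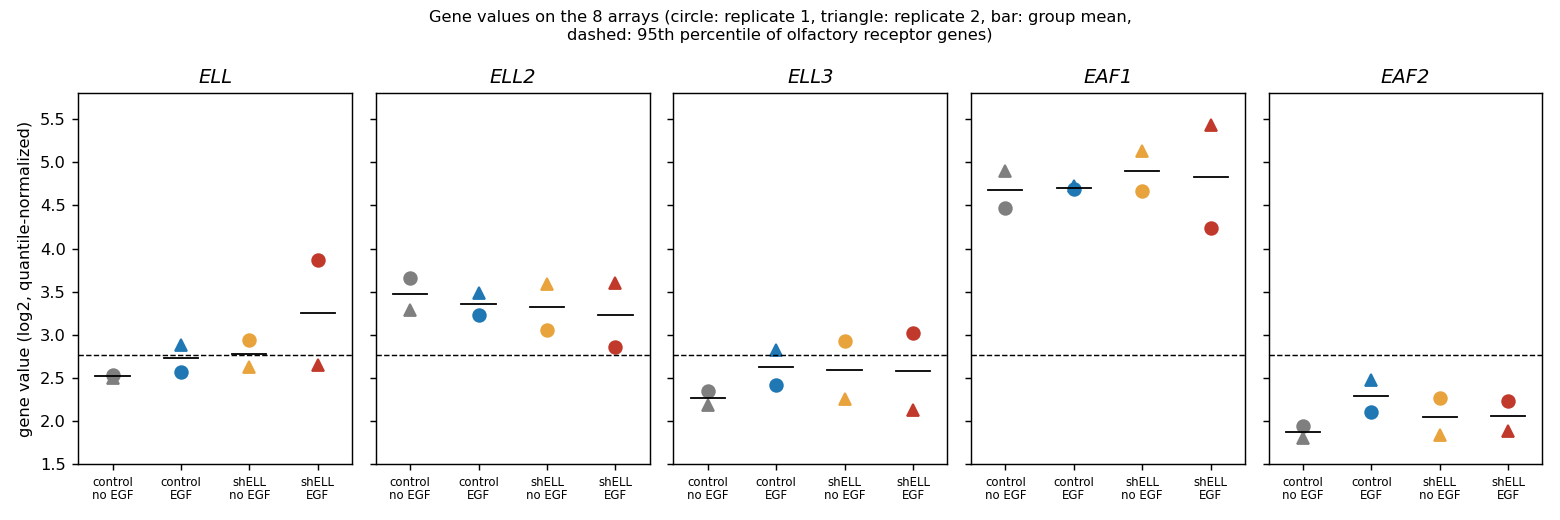
Gene values (log2, quantile-normalized) of the 5 members on the 8 arrays by group, with circles for replicate 1, triangles for replicate 2, bars for group means and a dashed line at the olfactory receptor level of 2.77. ELL2 and EAF1 lie above the line on all 8 arrays, EAF2 on none, and ELL and ELL3 on 3 each.

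Read probe set by probe set, ELL (chromosome 19, minus strand, 18553568 to 18632917 as deposited, NM_006532) ran from a mean of 1.13 to one of 7.42 over the 8 arrays, with a median of 2.73. The sources used here name no build for the deposited positions. Of its 20 probe sets, 12 had a mean above the probe-set background of 2.53, and 3 were above it on all 8 arrays. Against the olfactory receptor 95th percentile of each array itself, 1 was above on all 8. The brightest, 3855068, is the first from the 5′ end, at 18632866 to 18632917. It read 7.11 and 7.18 in control, 6.82 and 7.46 in control with EGF, 7.69 and 7.20 in shELL, and 8.72 and 7.21 in shELL with EGF. Its 2 groups of 4 overlapped, and no other ELL probe set had a mean above 3.93.

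A single ELL probe set separated the lines. Probe set 3855013, 88 bases long at 18553706 to 18553793 and the 19th of 20 from the 5′ end, read -0.46 and 1.02 in control, and 0.23 and 0.29 in control with EGF. In shELL it read 3.57 and 2.92, and in shELL with EGF 4.07 and 3.33. Every shELL array was above every control array, with a gap of 1.90 between the nearest 2, in the direction opposite to the knockdown that the label names. Of the 4 control values, 1 was above the olfactory receptor median of its own array. Among the shELL values, 3 of 4 exceeded the 95th percentile of olfactory receptors on their own array, the exception being the dim replicate 1 with EGF, 4.07 against 4.27.

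The control arrays averaged 0.27 ± 0.60 and the shELL arrays 3.47 ± 0.48 (log2, SD, n = 4 each), a difference of 3.21 with a 95% interval from 1.99 to 4.42. The unadjusted p was 0.000105, the 9th smallest of 211764 probe sets tested, and it did not pass over all of them (limma adjusted p = 0.9999), where 0 probe sets (0%) were called and 2.54% had an unadjusted p under 0.05. The probe set entered that test only through its shELL values, since its control mean is under the filter of 1.16. Without any filter it ranked 10th of 280649, again uncalled. Leaving out any 1 array kept the difference between 2.84 and 3.57. On the values as deposited it was 3.02, with a gap of 1.41 between the lines. In the authors' deposited table the means are 0.37 and 0.57 in control without and with EGF, and 3.73 and 3.25 in the knockdown.

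Its neighbours did not share the shift. Probe set 3855012, 27 bases away and last at the 3′ end, read 3.51, 0.80, 1.62 and 2.12 on the control arrays and 1.10, 1.00, 2.90 and 0.56 on the shELL arrays. Probe set 3855014, 120 bases away on the other side, differed by 0.50 with overlapping arrays. Among all other probe sets of the members the largest difference in size was 1.32. Over the whole array 24 of 280649 probe sets differed by at least 3 in log2 value, 12 in each direction, from 21 genes, and 22 of those had lines that did not overlap. Probe set 3855013 was 13th in size, after probe sets of ANKRD1, MYOF, KRT17, ITGB3, GLIPR1 and COL3A1 that were higher in shELL and of NF1, TBXAS1, C20orf107 and LEPR that were lower. Without it the ELL gene value differed between the lines by 0.29 in place of 0.40.

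**Figure D2:**
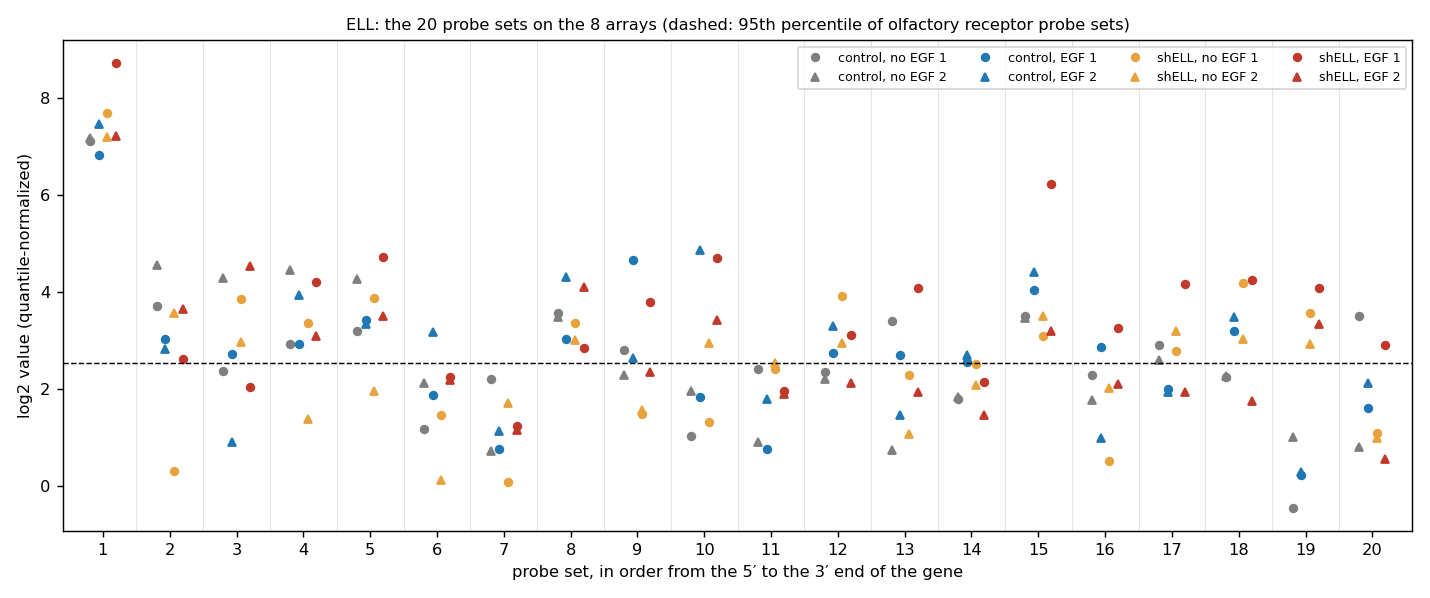
The 20 ELL probe sets from the 5′ to the 3′ end, with the log2 value of each of the 8 arrays (circles replicate 1, triangles replicate 2, colours by group) and a dashed line at the olfactory receptor level of 2.53. At position 19 the 4 shELL arrays, at 2.92 to 4.07, stand above the 4 control arrays, at -0.46 to 1.02, and at position 1 all arrays lie at 6.82 to 8.72.

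The ELL probe sets above background, 12 in number, gave no common direction. In shELL 7 were higher and 5 lower, with a mean difference of 0.086, or -0.17 with 6 lower when replicate 1 of shELL with EGF was left out. Over all 20 there were 10 higher and 10 lower, with a median of 0.075 where the median of 280649 probe sets was 0.018. On the values as deposited 13 were higher and 7 lower, beside 56.3% of all higher. With median centring 8 were higher and 12 lower, beside 39.8% of all higher. Leaving out replicate 1 of shELL with EGF also gave 8 higher and 12 lower, beside 48% of all higher. Probe set 3855067, the second from the 5′ end, read 3.71 and 4.55 in control, 3.03 and 2.82 with EGF, 0.31 and 3.56 in shELL, and 2.61 and 3.66 in shELL with EGF. The difference of shELL minus control was -0.99, the most negative of the ELL probe sets tested, and the arrays overlapped. Probe set 3855017 was above background on all 8 arrays, at 3.09 to 4.42 on 7 of them and at 6.23 on replicate 1 of shELL with EGF.

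ELL2, a paralogue that also enters the super elongation complex, was above background on every array. Its gene value was 3.66 and 3.29 in control, 3.23 and 3.48 in control with EGF, 3.05 and 3.59 in shELL, and 2.86 and 3.60 in shELL with EGF. The lines overlapped, and replicate 1 of both shELL groups held the 2 lowest values. The difference of shELL minus control was -0.14 (95% interval -0.72 to 0.43, limma adjusted p = 0.9999, exact permutation p = 0.514), and 0.043 without replicate 1 of shELL with EGF. The interval of the gene value thus reaches 0.43 upwards, and a rise of ELL2 in shELL was not seen.

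Of the 18 ELL2 probe sets (chromosome 5, minus strand, 95223734 to 95297590, NM_012081), 10 lay above background and 4 did so on all 8 arrays. Those 4 were 2867954, 2867951, 2867935 and 2867891. Against the olfactory receptor 95th percentile of each array itself, the first 3 of these stayed above on all 8 arrays. The brightest, 2867935, read 7.10 and 7.16 in control, 7.27 and 7.48 with EGF, 6.42 and 6.996 in shELL, and 5.95 and 7.87 in shELL with EGF. Probe set 2867951 went the same way, at 6.51 to 6.96 in control and 4.99 to 7.03 in shELL. Of the 10 above background, 5 were higher and 5 lower in shELL. Over all 18 there were 10 higher and 8 lower, beside 51.5% of all probe sets higher. Without replicate 1 of shELL with EGF 14 were higher and 4 lower, beside 48% of all. Their median was then 0.18, where that of all was -0.026. As deposited 12 were higher and 6 lower, beside 56.3% of all, and with median centring 9 and 9, beside 39.8%. Probe set 2867914 read 5.41 and 5.13 on replicate 2 of the shELL groups, and 3.48 and 2.84 on replicate 2 of control without and with EGF. On the replicate 1 arrays it read 1.69 to 2.66, so the replicate numbers stood apart. Within replicate 2 the shELL arrays were above the control arrays, and within replicate 1 the lines overlapped. Its difference of shELL minus control was 0.83 (95% interval -1.05 to 2.70). At the 3′ end, the last 5 probe sets lay below background.

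ELL3 lay near background. Its gene value was 2.35 and 2.18 in control, 2.42 and 2.83 in control with EGF, 2.93 and 2.25 in shELL, and 3.02 and 2.13 in shELL with EGF, so that 3 arrays exceeded 2.77 and the lines overlapped. Those 3 arrays were the same as for ELL. The difference was 0.14 (95% interval -0.49 to 0.76, limma adjusted p = 0.9999, exact permutation p = 0.714), and -0.084 without replicate 1 of shELL with EGF. Of its 15 probe sets (chromosome 15, minus strand, 44064849 to 44069154, NM_025165), 4 had a mean above background (3621640, 3621639, 3621637 and 3621624) and none was above it on all 8 arrays. Probe set 3621624, the last at the 3′ end, read 3.69 and 2.44 in control, 3.95 and 4.45 with EGF, 4.84 and 2.74 in shELL, and 5.69 and 2.29 in shELL with EGF. Neither paralogue therefore differed between the lines by more than the spread of its arrays, and the intervals do not exclude rises below their upper bounds.

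EAF1, which binds ELL, had the firmest signal. Its gene value was 4.47 and 4.90 in control, 4.68 and 4.73 in control with EGF, 4.67 and 5.14 in shELL, and 4.24 and 5.43 in shELL with EGF. All 8 arrays exceeded background, the lines overlapped, and shELL held both the lowest and the highest array. The difference was 0.17 (95% interval -0.49 to 0.84, limma adjusted p = 0.9999, exact permutation p = 0.571), and -0.12 without replicate 2 of shELL with EGF.

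Of the 10 EAF1 probe sets (chromosome 3, plus strand, 15469151 to 15483049, NM_033083), 7 lay above background and 5 did so on all 8 arrays. Against the olfactory receptor 95th percentile of each array itself, 3 were above on all 8. The brightest, 2612386, lies last at the 3′ end and read 6.46 and 6.53 in control, 7.12 and 6.58 with EGF, 6.28 and 7.05 in shELL, and 7.41 and 6.68 in shELL with EGF. Its neighbour 2612385 read 5.93, 4.49, 5.70 and 6.13 on the replicate 2 arrays of control, control with EGF, shELL and shELL with EGF, and 3.87, 4.21, 3.60 and 3.92 on the replicate 1 arrays. Those arrays separated by replicate number, while on the neighbouring probe sets 2612384 and 2612386 they overlapped. The member with the largest line difference after ELL probe set 3855013 was 2612383, 1.32 higher in shELL with overlapping arrays, at 0.88 to 3.19 in control and 2.07 to 4.70 in shELL.

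EAF2, the second ELL-associated factor, was below background on all 8 arrays. Its gene value was 1.94 and 1.80 in control, 2.11 and 2.47 in control with EGF, 2.26 and 1.84 in shELL, and 2.23 and 1.88 in shELL with EGF. The difference of -0.026 (95% interval -0.52 to 0.47, limma adjusted p = 0.9999, exact permutation p = 0.943) is between values that are not above background. Of its 8 probe sets (chromosome 3, plus strand, 121554146 to 121605356, NM_018456), only the first from the 5′ end, 2638689, had a mean above background, at 2.86 with a range from 2.49 to 3.70. Probe set 2638708 had shELL arrays above control arrays, at 0.78 to 2.41 against 0.44 to 0.75, with all 8 values below background.

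**Figure D3:**
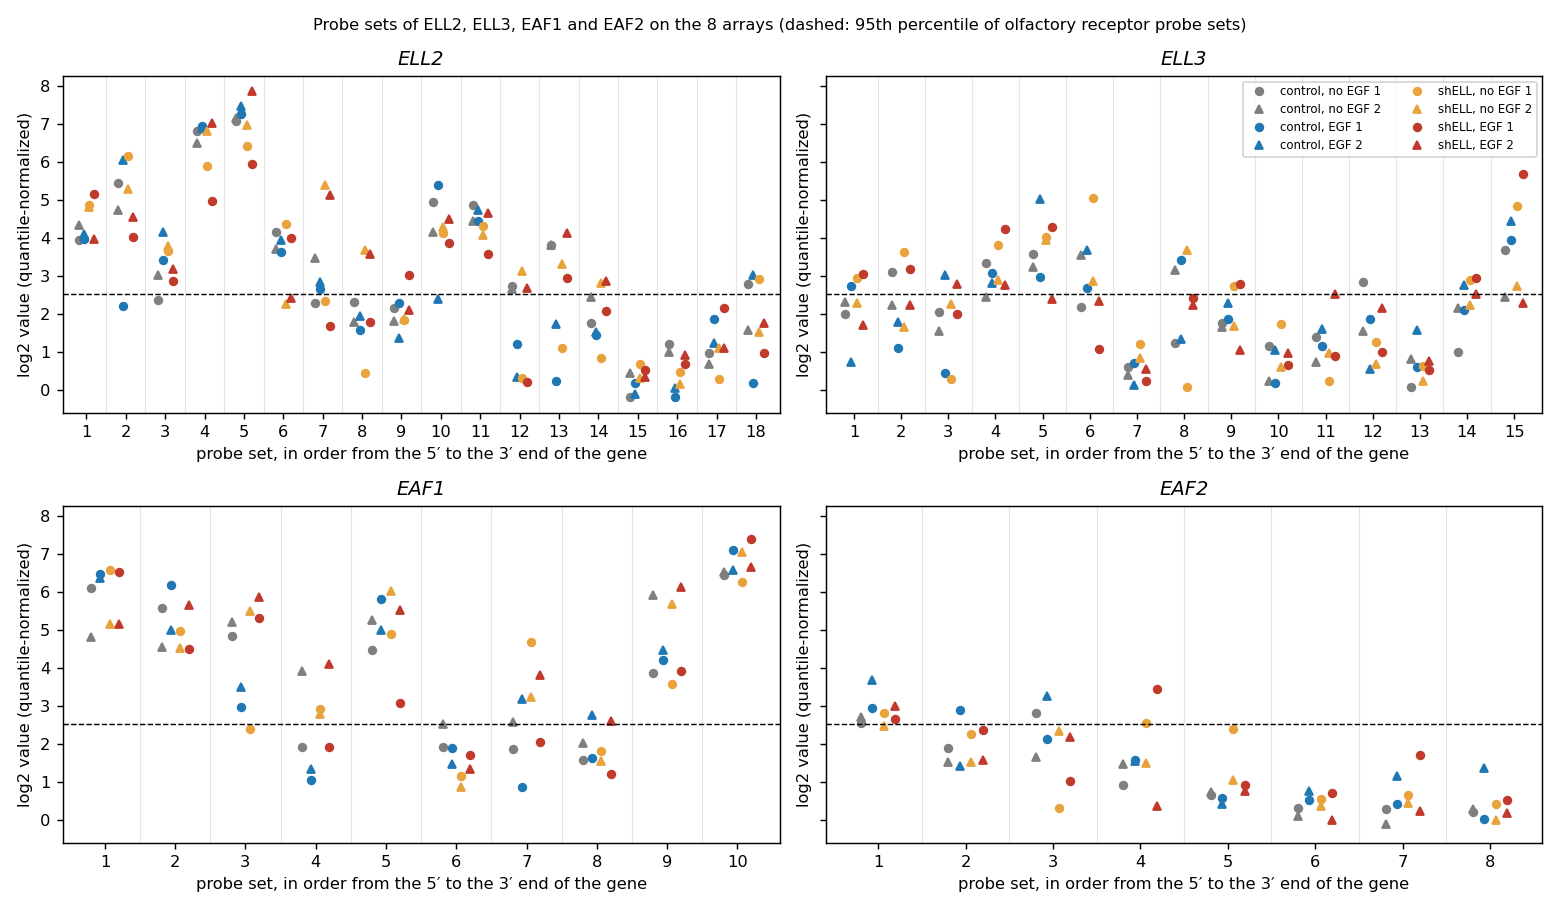
Probe sets of ELL2, ELL3, EAF1 and EAF2 from the 5′ to the 3′ end, with the log2 value of each array and a dashed line at the olfactory receptor level of 2.53. ELL2 has its 2 brightest probe sets at positions 4 and 5 and EAF1 its brightest at position 10, while 7 of 8 EAF2 probe sets have means below the line.

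Counted together, 34 of 71 member probe sets had a mean above background over all 8 arrays, and 30 had a control mean above the same percentile taken over the control arrays. The share of all probe sets above these levels was not counted. The lines did not overlap in 2 of 71 (2.82%), against 2.16% of all probe sets with 1 symbol. EGF arrays stood apart in 1 (1.41%), ELL2 probe set 2867876 at 1.12 to 2.17 with EGF and 0.28 to 1.12 without, where the nearest values differ only past the second decimal, against 2.45% of all. The replicate numbers stood apart in 5 (7.04%), against 5.1% of all. Of the 61 members' probe sets that entered the test, 1 had an unadjusted p under 0.05 between the lines (1.64%), against 2.54% of all probe sets tested. That was 3855013, which entered the test through its shELL values. The 2 members that separated the lines were 3855013 and, below background, 2638708 of EAF2.

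Within each EGF state the members were likewise uncalled with limma, in comparisons that share arrays with the average. Without EGF, shELL minus control was 0.26 for ELL, -0.16 for ELL2, 0.32 for ELL3, 0.22 for EAF1 and 0.18 for EAF2, and with EGF 0.53, -0.13, -0.050, 0.13 and -0.23 in the same order. Over all genes 0% were called in either state or in their average, where in the average 2.64% had an unadjusted p under 0.05 and 0 of 5 members did.

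EGF for 1 h left the members without a called change. Averaged over both lines, EGF minus no EGF was 0.34 for ELL (95% interval -0.31 to 0.99), -0.10 for ELL2 (-0.68 to 0.47), 0.17 for ELL3 (-0.45 to 0.80), -0.022 for EAF1 (-0.69 to 0.64) and 0.21 for EAF2 (-0.29 to 0.71), with limma adjusted p of at least 0.901. Without replicate 1 of shELL with EGF the ELL value was 0.037, and without replicate 2 of that group 0.65. Of all genes 1 (0.00619%) was called in this average, 1 (0.00619%) in control alone and 1 (0.00619%) in shELL alone, and no member was among them. An unadjusted p under 0.05 was found for 3.17% of genes and 0 of 5 members. In control alone the largest member difference was 0.41, for EAF2, whose values with EGF of 2.11 and 2.47 were above 1.94 and 1.80 without it but below background. Among probe sets 0% were called with EGF.

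Among ELL probe sets, 3855033 read 1.03 and 1.95 in control and 1.33 and 2.94 in shELL without EGF, and 1.85 and 4.87 in control and 4.70 and 3.43 in shELL with it. It was 1.90 higher with EGF (unadjusted p = 0.0256, limma), and its arrays overlapped, with replicate 1 of control with EGF at 1.85. Over the 20 ELL probe sets 14 were higher and 6 lower with EGF, with a median of 0.23, where 53% of all probe sets were higher and their median was 0.042. Without replicate 1 of shELL with EGF 11 were higher and 9 lower, beside 50.3% of all. On the values as deposited the ELL count turned to 7 higher and 13 lower, with a median of -0.20, beside 33.2% of all higher and a median of -0.26.

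The EGF change of the gene value did not differ detectably between the lines for any member. The interaction, shELL minus control, was 0.26 for ELL (95% interval -1.04 to 1.56), 0.028 for ELL2 (-1.12 to 1.18), -0.37 for ELL3 (-1.62 to 0.87), -0.089 for EAF1 (-1.42 to 1.24) and -0.41 for EAF2 (-1.40 to 0.59). Over all genes 0% were called and 1.73% had an unadjusted p under 0.05, with 0 of 5 members. With 2 arrays a group the intervals of the interaction were wide, and differences within them could not be detected. Among probe sets, 2867887 of ELL2 had an interaction of 4.16 (95% interval 1.30 to 7.02, unadjusted p = 0.0082, limma). Probe set 2612375 of EAF1 had 3.42 (0.43 to 6.42, unadjusted p = 0.0286, limma). Neither passed over all probe sets tested (limma adjusted p = 0.99998), and the share of all with such an unadjusted p was not counted.

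**Figure D4:**
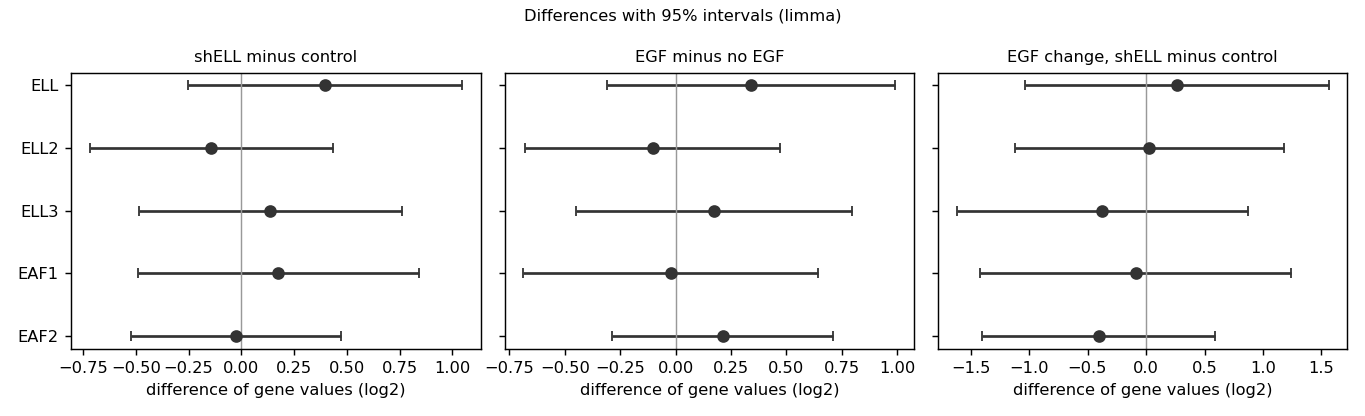
Differences of gene values (log2) with 95% intervals from limma for the 5 members, for shELL minus control, EGF minus no EGF, and the interaction, shELL minus control, of the EGF change. All 15 intervals include 0.

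Across arrays some members correlated positively and others negatively with the olfactory receptor genes. The median of 45 olfactory receptor genes was 1.56 and 1.20 in control, 1.77 and 1.98 in control with EGF, 2.04 and 1.31 in shELL, and 2.46 and 1.29 in shELL with EGF. ELL3 followed it at r = 0.957 over the 8 arrays, and 1.62% of all genes did so more closely. ELL followed it at 0.849 and EAF2 at 0.840, where 11.9% and 12.8% of all genes had a higher r. EAF1 and ELL2, both above background, ran against it at -0.770 and -0.734, where 88.7% and 86.5% of all genes had a higher r. These are descriptions of 8 points that share normalization and array brightness, and the part of brightness in the line differences was not tested.

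The pair ELL and ELL2 correlated negatively over the 8 arrays, at r = -0.73. Without replicate 1 of shELL with EGF, which held the highest ELL and the lowest ELL2 value, r was -0.36 over 7 arrays. ELL and ELL3 were at 0.79, or 0.89 without that array, and ELL3 and EAF2 at 0.88, or 0.92. The genes whose values over the 8 arrays were most like those of a member, among about 7200 above background, were UBP1, ZNF611 and SLMO1 for ELL (r = 0.981, 0.973 and 0.965), and ANKRD13A, TK1 and GPS2 for ELL2 (0.964, 0.962 and 0.944). For EAF1 they were TXNRD1, JMJD1C and GTPBP4 (0.981, 0.970 and 0.961). For ELL3 they were DKFZP434K028, ELP2P and C17orf91 (0.990, 0.985 and 0.984), and for EAF2 TNNI2, NOVA1 and PCDHGA11 (0.965, 0.965 and 0.962). With 8 points such values are common: 89 genes exceeded 0.9 with ELL and 34 with ELL2.

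**Figure D5:**
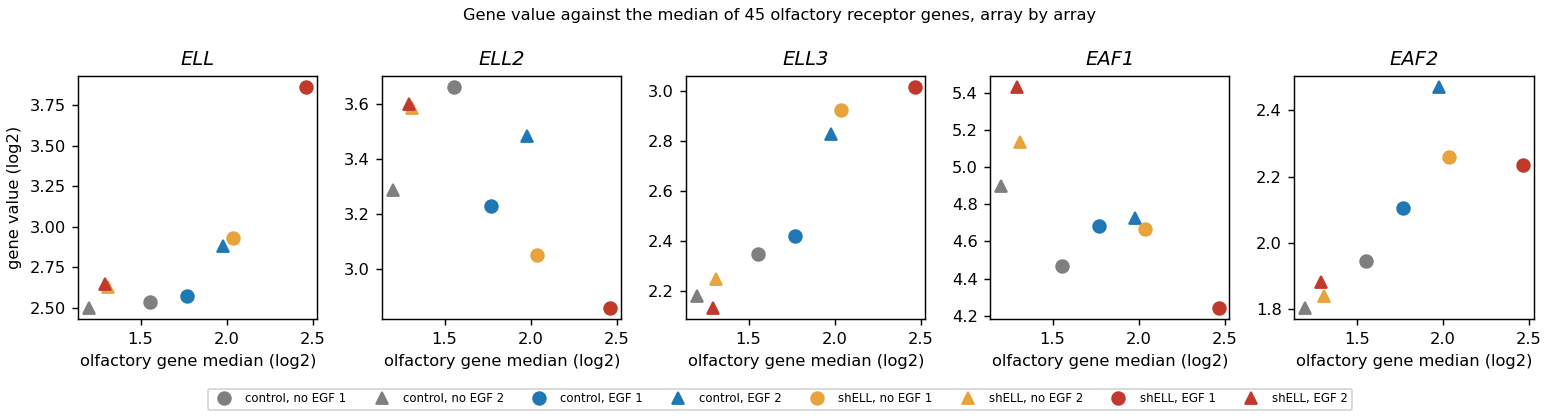
Gene value (log2) of each member against the median of 45 olfactory receptor genes (log2) on the same array, with circles for replicate 1 and triangles for replicate 2, coloured by group. ELL3 rises with the olfactory receptor median (r = 0.957) and EAF1 falls with it (r = -0.770), and replicate 1 of shELL with EGF is the point farthest to the right, at 2.46.

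Partners of ELL in elongation complexes were read from a list of 40 genes, of which 38 had a gene value and 29 lay above background, as did 7201 of all 16145 genes. Between the lines 15 were higher and 23 lower in shELL, with a median of -0.086 where the median of 16145 genes was -0.0026, and 0 passed in either direction with limma. At an unadjusted p under 0.05, 2 were higher and 0 lower, against 2.64% of all genes in either direction. HEXIM1, the inhibitor that holds P-TEFb inactive in the 7SK particle, read 3.99, 4.19, 4.39 and 4.16 on the control arrays and 4.59, 4.42, 5.55 and 4.90 on the shELL arrays. HEXIM1 was 0.68 higher in shELL on average (unadjusted p = 0.0143, limma adjusted p = 0.9999), and the difference was 0.0099 when the median over its probe sets replaced median polish. LEO1, a subunit of the PAF1 complex, averaged 2.11 ± 0.23 over control arrays and 2.69 ± 0.39 over shELL arrays (SD, n = 4 each), both below background, and its difference of 0.58 was -0.032 when dim probe sets were left out. For HEXIM1 and LEO1 every shELL array was above every control array. Both were named for their unadjusted p in this same comparison of the same arrays, so this separation adds no support. The share of all genes with lines apart was not counted.

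No core partner passed between the lines. AFF4, the scaffold of the super elongation complex, differed by 0.082 in shELL (95% interval -0.47 to 0.63). CDK9 and CCNT1, the kinase and cyclin of P-TEFb, differed by -0.32 (-1.23 to 0.59) and -0.20 (-1.09 to 0.68), and MED26, the Mediator subunit that recruits ELL-containing complexes, by -0.16 (-0.64 to 0.33). ICE2, a subunit of the little elongation complex, was at 2.75 over all arrays, just under background, and differed by -0.36, while ICE1 had no gene value. With EGF, 10 of the 38 were higher and 28 lower, with a median of -0.13 where that of all genes was 0.045, and none passed or had an unadjusted p under 0.05. None of the 38 had an unadjusted p under 0.05 for the interaction either.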

How the data were processed

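Labelled cDNA from total RNA of 8 cultures was measured on Affymetrix human exon arrays, per the labels. Each deposited number is a log2 signal of 1 probe set, made by the authors with Affymetrix Expression Console and RMA, per the submitters' processing notes, whose versions and genome build no source used here states. A second deposited file holds the authors' mean log2 value per group, within 5e-05 of the array means, with symbols and positions. Because array quartiles differed, values were quantile-normalized between arrays. Of 287329 probe sets, 280649 had 1 symbol, and the 211764 of these whose mean reached the 25th percentile, 1.16, were tested. Genes with at least 3 of them were summarised by median polish (at most 10 iterations), giving 16145. The test was limma 3.58.1 under R 4.3.3 (data.table package, 1.17.8): 4 group means, 4 residual degrees of freedom, Benjamini-Hochberg adjustment over all genes or probe sets at 0.05, in 7 comparisons. The exact two-sided permutation test of 4 arrays against 4 has 35 splits, made without regard to EGF state. The number of arrays limits precision. The procedure was tested on simulated data. Members, lists and rules were chosen with earlier results of these data known.

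Named were the 5 members, the 3 genes of most similar pattern for each, pathway genes by an unadjusted p under 0.05 or a fixed choice, and probe sets above background or at an unadjusted p under 0.05. Probe set 3855033, those named for the interaction and those described for their brightness, replicate pattern or largest differences were picked out after their values were seen. All 5 symbols are current in RefSeq (GRCh38.p14), no other gene's probe sets lay within their deposited spans, and 4 of them had a promoter there. No 2 arrays held identical values. Alternatives covered normalization, filter, gene summary, arrays in the fit, array weights, an intensity trend, a replicate block, the background level and each array left out. Plots came from matplotlib 3.10.9 (Python 3.11.15).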

Additional observations from a re-analysis of the deposited data

How the results depend on the processing

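Alternatives kept every member difference uncalled, and many changed its sign. The lines differed for ELL2 by 0.21 on the values as deposited (where the median of all genes is 0.15), 0.015 with median centring, 0.070 with the mean and 0.37 with the median over probe sets, and from -0.33 to 0.043 with each array left out in turn. With arrays left out ELL3 ran from -0.084 to 0.36, EAF1 from -0.12 to 0.47 and EAF2 from -0.13 to 0.079. EAF2 was also 0.076 as deposited, 0.011 with no filter and 0.0042 with the median. LEO1 was -0.032 with probe sets above the olfactory receptor level. The gene-value difference of ELL ran from 0.091 to 0.70 and was positive in all settings. The balance of its higher and lower probe sets changed, from 10 and 10 in the main setting to 13 and 7 as deposited. It was 8 and 12 with median centring, and also without replicate 1 of shELL with EGF.

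For EGF minus no EGF the deposited values gave ELL -0.12, ELL3 -0.32 and EAF2 -0.13, where the median of all genes is -0.36, and median centring gave ELL3 -0.026. Probe sets above the olfactory receptor level gave EAF1 0.086. With arrays left out ELL ran from 0.037 to 0.65, EAF2 from 0.11 to 0.32, ELL2 from -0.29 to 0.082, ELL3 from -0.049 to 0.39 and EAF1 from -0.32 to 0.28. For the interaction the deposited values gave ELL -0.60 and ELL2 -0.55 (median of all genes -0.66), median centring -0.33 and -0.33 (-0.43), and the median over probe sets ELL -0.025. ELL2 was -0.22 with probe sets above the olfactory receptor level, and EAF1 0.34 with the mean and 0.56 with the median. With arrays left out ELL ran from -0.35 to 0.87, ELL2 from -0.34 to 0.40, ELL3 from -0.82 to 0.069, EAF1 from -0.68 to 0.51 and EAF2 from -0.62 to -0.20.

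Calls over all genes moved between 0 and 2. Between the lines 0 became 1 without replicate 1 of shELL with EGF. With EGF in control 1 became 0 as deposited, with median centring and without any array outside shELL with EGF, and 2 with array weights or the replicate block. With EGF in shELL it became 0 as deposited, with median centring, probe sets above the olfactory receptor level, the mean, only the groups compared, array weights, the replicate block and every array left out but replicate 1 of shELL with EGF. Averaged over lines it became 0 as deposited and with median centring, and 2 with the mean or the replicate block. The replicate block, run because the groups share replicate numbers, changed no member call. It cannot change a member difference, since every group holds 1 array of each number. Deviations of same-numbered arrays correlated at 0.37 to 0.51 among control without EGF and both shELL groups. Between control with EGF and each of these groups they correlated at -0.31 to -0.16. The labels tie the numbers to no shared day or batch and not every pair was positive, so the arrays were not treated as paired, and a shared effect of the number in part of them was not tested. The number of member probe sets above background was 34, and 13 when the 99th olfactory receptor percentile set the level. Its other levels, one chosen after seeing the data, stayed within 1.5 times. The 2 settings of ELL without 1 probe set, and those of the number of ELL probe sets higher with EGF (14, or 7 as deposited, 13 with median centring and 11 without replicate 1 of shELL with EGF), were also chosen after seeing the data. For these moves the cause was not tested. Signal over background limits ELL, ELL3 and EAF2.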
